A study of Mus musculus with 12 samples.

Results

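The transcripts described here are 4 nuclear copies of mitochondrial genes, Gm13340, Gm10925, Gm28661 and Gm28437, taken by gene symbol out of the 55348 genes counted. They were picked by name with their levels in these libraries already known, so their levels and differences are given as a description and carry no test. RNA was sequenced from the dissected organ of Corti of mice at postnatal day 21, with the stria vascularis and modiolus removed, in 12 libraries. The 3 wild-type libraries came from separately bred mice that were not littermates of the mutants. The 3 Clrn1-/- libraries came from mice with a constitutive deletion of an exon, obtained by crossing a floxed line with PGK-cre mice. The 3 Clrn2-/- libraries came from the clarinet line, which carries a nonsense mutation of Clrn2. The 3 Clrn1-/-Clrn2-/- libraries came from mice that carried both mutations, the double mutants. The labels do not say whether a library pools animals, so the p-values below measure the spread between these libraries only.

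Clrn1 and Clrn2 encode clarin-1 and clarin-2, membrane proteins of hair cells, and loss of either impairs hearing. Mitochondrial DNA encodes the catalytic core of the respiratory chain. Cytochrome c oxidase (complex IV) is built around the subunits Co1, Co2 and Co3, and Atp6 forms part of the proton channel of ATP synthase. These genes are transcribed together as a single long RNA from the heavy strand, which is cut in most places at tRNAs. The pieces are given short poly(A) tails, so poly(A) selection retains them. Pieces of mitochondrial DNA have been inserted into nuclear chromosomes many times during evolution. Such insertions are annotated as pseudogenes and are named by Gm numbers in the mouse. Hair cells, supporting cells and the neurons that innervate them depend on mitochondrial ATP supply, and mitochondrial gene defects are a known cause of hearing loss.

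All 4 copies are annotated as single-exon unprocessed pseudogenes on the minus strand (GRCm38 coordinates, Gencode M21 annotation). Gm13340 (ENSMUSG00000083563.1, chr2:22588103-22589647) is a copy of the whole of mt-Co1, at 97.6% identity with 37 mismatches over 1545 bases. The other three lie side by side on chromosome 1. Gm28661 (ENSMUSG00000102070.1, chr1:24614885-24615565) copies mt-Co2, Gm10925 (ENSMUSG00000100862.1, chr1:24613974-24614651) copies mt-Atp6 and Gm28437 (ENSMUSG00000101111.1, chr1:24613189-24613971) copies mt-Co3. Each of these was identical to its mitochondrial gene over its whole length, 681 of the 684 bases of mt-Co2, 678 of the 681 of mt-Atp6 and 783 of the 784 of mt-Co3. The same stretch of chromosome 1 holds copies of mt-Nd4 (Gm28439), mt-Nd4l (Gm10222), mt-Nd3 (Gm28438) and the end of mt-Co1 (Gm29216). Gm13340 is flanked on chromosome 2 by copies of mt-Nd2 (Gm13339) and mt-Co2 (Gm13341).

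The sequences below, from the Gencode transcripts, show how close the copies are. In the first pair, bases 435 to 534 of mt-Co1, capitals mark the 5 bases at which Gm13340 (chr2:22589114-22589213) differs, which are A462G, A468G, T501C, C519T and G534A, counted from the first base of mt-Co1 with the mitochondrial base first.
mt-Co1: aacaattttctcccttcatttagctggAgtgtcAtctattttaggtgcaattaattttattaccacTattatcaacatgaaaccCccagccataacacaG
Gm13340: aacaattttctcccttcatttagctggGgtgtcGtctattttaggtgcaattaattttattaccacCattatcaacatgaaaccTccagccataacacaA
In the next set, bases 402 to 501 of mt-Co2, the described copy Gm28661 (chr1:24615065-24615164) has no difference, and the chromosome 2 copy Gm13341 (chr2:22587474-22587561) has 19, of which 12 are deleted bases. Capitals mark the substituted bases of mt-Co2 and Gm13341.
mt-Co2: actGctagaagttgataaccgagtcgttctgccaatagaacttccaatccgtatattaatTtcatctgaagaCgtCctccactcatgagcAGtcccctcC
Gm28661: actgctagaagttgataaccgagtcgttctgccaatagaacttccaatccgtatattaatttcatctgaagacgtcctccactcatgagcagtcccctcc
Gm13341: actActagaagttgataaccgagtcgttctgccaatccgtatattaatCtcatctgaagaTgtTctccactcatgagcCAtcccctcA
The first 100 bases of Gm10925 (chr1:24614552-24614651) and of Gm28437 (chr1:24613872-24613971) are shown as examples of copies that hold no difference from mt-Atp6 and mt-Co3, so nothing is in capitals.
Gm10925: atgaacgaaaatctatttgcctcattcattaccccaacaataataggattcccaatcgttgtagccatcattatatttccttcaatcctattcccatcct
Gm28437: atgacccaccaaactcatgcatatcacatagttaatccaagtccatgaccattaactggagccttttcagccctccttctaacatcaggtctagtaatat

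The read length was 100 bases, so each 100-base window of a copy was compared with the mitochondrial gene. All 579 windows of Gm10925, all 582 of Gm28661 and all 684 of Gm28437 were exact stretches of the mitochondrial gene. For Gm13340 this held for 80 of 1446 windows (5.5%). Read from the side of mt-Co1, 66 of its 1446 windows were exact in Gm13340 alone, 366 in Gm29216 alone, 14 in both and 1000 in neither. A further ambiguity was internal to the nucleus, since 88 windows of Gm28661 were also present in another nuclear transcript. A read of this length from Gm10925, Gm28661 or Gm28437 therefore cannot be told apart from one of the mitochondrial transcript by its sequence, and "level" below means reads that the authors' counting assigned to these rows. The mitochondrially encoded genes themselves were not analysed here.

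Library depth was 30008679 to 41049302 counts on genes, and trimmed-mean (TMM) scaling factors were 0.963 to 1.02. The labels were checked first. Clrn1 stood at 25.8 ± 2.47 CPM (counts per 1000000 of the scaled library, mean ± SD, n = 3) in wild-type, 28.8 ± 2.83 in Clrn2-/-, 2.83 ± 0.184 in Clrn1-/- and 2.30 ± 0.482 in the double mutant. Clrn2 stood at 2.72 ± 0.727 CPM in wild-type, 1.23 ± 0.172 in Clrn2-/-, 0.916 ± 0.107 in Clrn1-/- and 1.08 ± 0.138 in the double mutant, so its level did not separate the Clrn2-/- libraries from the Clrn1-/- ones. The markers of hair cells, supporting cells, neurons, Schwann cells, stria vascularis, skeletal muscle, red blood cells and macrophages were each detected, with none of the 87 listed genes at 0 in all libraries.

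The 4 copies ranked among the most abundant rows of the tables. By mean CPM over the 12 libraries Gm13340 was the highest of all genes, Gm10925 ranked 2, Gm28437 ranked 6 and Gm28661 ranked 7. Together they took 2.88 to 3.07% of all counts in the wild-type libraries and 1.88 to 3.07% over the whole series. Per length, the order in wild-type was different: Gm10925 had 12386 CPM per kb, Gm28661 8444, Gm28437 7686 and Gm13340 6668. Gm10925 stood above Gm28661 in 12 of 12 libraries, and Gm28437 above Gm13340 in 12 of 12. The middle pair were the closest, with Gm28661 above Gm28437 in 11 of 12 libraries and a ratio of 0.945 to 1.21, the exception being Clrn2-/- replicate 1.

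Gm13340, the copy of mt-Co1, the subunit that holds the site where oxygen is reduced, had 9969, 10512 and 10425 CPM in the 3 wild-type libraries. In Clrn1-/- it had 5821, 7031 and 7792 CPM. In Clrn2-/- it had 6327, 9424 and 10201 CPM, and in Clrn1-/-Clrn2-/- 7379, 8030 and 7865 CPM. All Clrn1-/- and all Clrn1-/-Clrn2-/- libraries lay below the lowest wild-type library, and the Clrn2-/- libraries overlapped the wild-type range, with 2 of 3 below it. The group means were 10302 ± 292 CPM in wild-type against 6881 ± 994 in Clrn1-/-, 8651 ± 2050 in Clrn2-/- and 7758 ± 338 in the double mutant, which are log2 ratios to wild-type of -0.58, -0.25 and -0.41 for the 3 mutants in that order. As background, all 3 libraries of the mutant lay below all 3 of wild-type for 19.8% of the 19052 genes tested in Clrn1-/-, 14.4% in Clrn2-/- and 23.2% in the double mutant.

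Gm10925, the copy of mt-Atp6, had 8011, 8589 and 8593 CPM in wild-type and 5482, 5781 and 6587 CPM in Clrn1-/-. It had 6050, 8060 and 8930 CPM in Clrn2-/-, a range that spans all of the wild-type libraries, and 6686, 7190 and 6703 CPM in Clrn1-/-Clrn2-/-. The Clrn1-/- and Clrn1-/-Clrn2-/- libraries did not overlap wild-type, and 1 of the 3 Clrn2-/- libraries lay below it. The means were 8398 ± 335, 5950 ± 572, 7680 ± 1477 and 6860 ± 287 CPM in the order wild-type, Clrn1-/-, Clrn2-/- and Clrn1-/-Clrn2-/-, with log2 ratios of -0.50, -0.13 and -0.29.

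Gm28661, the copy of mt-Co2, the subunit that takes up electrons from cytochrome c, had 5465, 5869 and 5918 CPM in wild-type. The Clrn1-/- libraries had 3563, 3932 and 4316 CPM, the Clrn2-/- libraries 3868, 5072 and 5280 CPM and the Clrn1-/-Clrn2-/- libraries 4396, 4651 and 4673 CPM. It was the one copy of the 4 for which all 9 mutant libraries lay below the wild-type range. The same held for Gm29216 and Gm13339, named above, and the share of all genes for which it holds was not counted. The means were 5751 ± 249, 3937 ± 377, 4740 ± 762 and 4573 ± 154 CPM in the same order of genotypes, with log2 ratios of -0.55, -0.28 and -0.33.

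Gm28437, the copy of mt-Co3, the third core subunit of complex IV, had 5655, 6153 and 6247 CPM in wild-type and 3684, 3865 and 4370 CPM in Clrn1-/-. It had 4707, 5745 and 6019 CPM in Clrn2-/-, with 1 library below the wild-type range, and 4295, 4665 and 4448 CPM in Clrn1-/-Clrn2-/-. The means were 6018 ± 318, 3973 ± 355, 5490 ± 692 and 4469 ± 186 CPM, with log2 ratios of -0.60, -0.13 and -0.43. Across the 4 copies the log2 ratio in Clrn1-/- ran from -0.60 to -0.50, in Clrn1-/-Clrn2-/- from -0.43 to -0.29 and in Clrn2-/- from -0.28 to -0.13, beside a median over all genes tested of -0.003, 0.001 and -0.002.

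**Figure D1:**
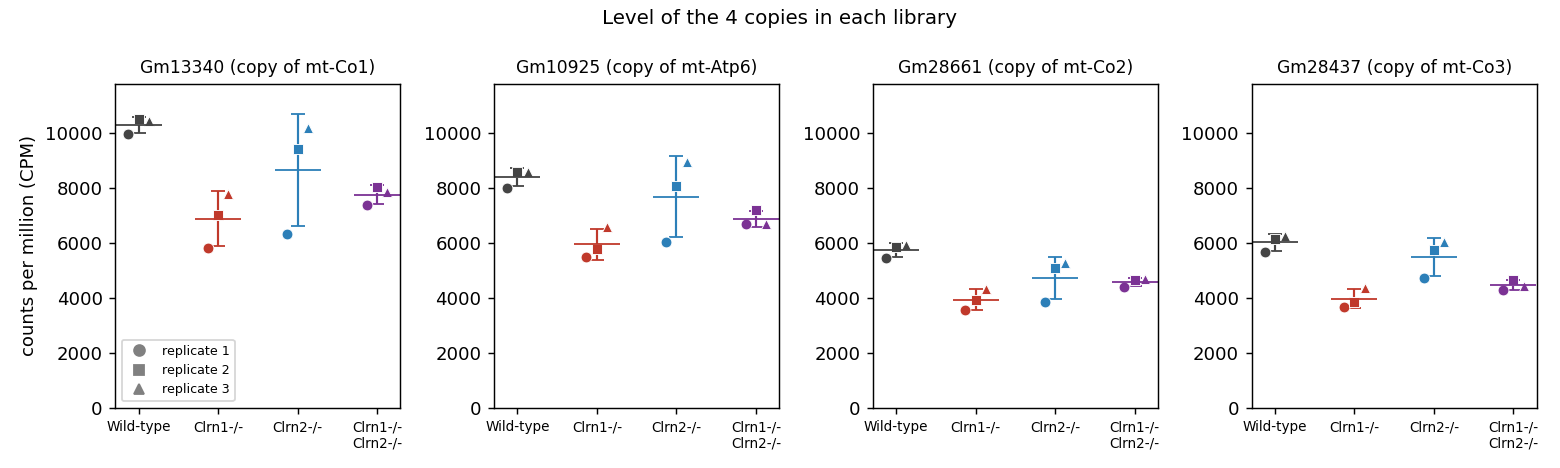
CPM of the 4 copies (y axis, starting at 0) in the 3 libraries of each genotype (x axis). Symbols are replicates 1 to 3, horizontal bars are means and vertical bars are SD. For each copy the Clrn1-/- and Clrn1-/-Clrn2-/- libraries lie below all 3 wild-type libraries, and Clrn2-/- replicate 1 lies apart from the other 2 Clrn2-/- libraries.

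Summed over the 4 copies, the wild-type libraries had 29100, 31123 and 31182 CPM. The Clrn1-/- libraries had 18550, 20608 and 23065 CPM, 68.1% of the wild-type mean (log2 ratio -0.55). The Clrn2-/- libraries had 20952, 28301 and 30430 CPM, 87.2% of it (-0.20), and the Clrn1-/-Clrn2-/- libraries had 22756, 24536 and 23689 CPM, 77.7% of it (-0.36). The Clrn1-/- libraries were therefore the lowest on average, but their highest library exceeded the lowest of Clrn1-/-Clrn2-/-, so these neighbours overlapped.

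The spread of Clrn2-/- came from 1 library. In Clrn2-/- replicate 1 the sum stood at 71.4% of the mean of the other 2 libraries, whereas each of the other genotypes had its libraries within 84.9 to 118% of each other on the same measure. Without this library the mean of the remaining Clrn2-/- libraries was 29365 CPM, 96.4% of wild-type (log2 ratio -0.05), and the ratios of the single copies were -0.07 for Gm13340, 0.02 for Gm10925, -0.15 for Gm28661 and -0.03 for Gm28437. The depth of this library, 37423717 counts, and its scaling factor, 0.994, were within the range of the series.

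The copies moved as a group from library to library. Their shares of the sum were 30.2 to 34.3% for Gm13340, 27.5 to 29.6% for Gm10925, 17.3 to 19.7% for Gm28661 and 18.8 to 22.5% for Gm28437 over the 12 libraries. In Clrn2-/- replicate 1 Gm28437 took its highest share and Gm13340 its lowest. Pearson's r between log2 CPM of pairs of copies was 0.918 to 0.979 over the 12 libraries, and 0.942 to 0.987 after the genotype means were removed. These coefficients are a description, since all points of a library share its depth and scaling.

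The values of the double mutant can be set beside those of the 2 single mutants. For the sum, the log2 ratios of Clrn1-/- and Clrn2-/- add to -0.75, and the Clrn1-/-Clrn2-/- libraries stood at -0.36, which is 0.39 higher. For the single copies the same difference was 0.43 for Gm13340, 0.33 for Gm10925, 0.50 for Gm28661 and 0.30 for Gm28437. Without Clrn2-/- replicate 1 it was 0.24 for the sum and 0.19 to 0.37 for the single copies.

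To see what the copies share with others of their kind, the Gencode transcripts were searched for further nuclear copies of mitochondrial messenger or ribosomal RNA, with at least 80% identity over at least 80% of their length. This gave 24 others, of which 22 were analysed. Together with the 4 described there were 26 copies. All 15 copies with at least 90% identity had a mean of 3.16 CPM or more. Among the 11 below that, Gm20594 had a mean of 98.6 CPM, 7 had no read in any library and the rest stayed under 1 CPM. Identity did not order the levels within the first class. Gm13341, at 95.9% identity to mt-Co2, had 4.65 ± 1.08 CPM in wild-type, whereas Gm28661, at 100% identity to the same gene, had 5751 ± 249.

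**Figure D2:**
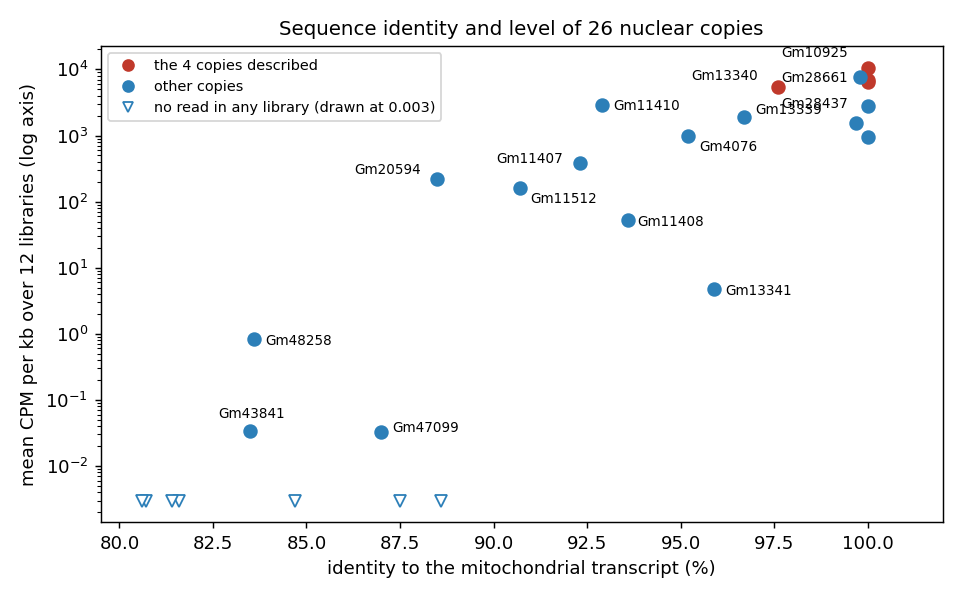
Mean CPM per kb over the 12 libraries (y axis, log scale) against identity to the mitochondrial transcript in percent (x axis) for 26 nuclear copies. Each point is a copy, red for the 4 described and blue for the others, and open triangles are the 7 copies without a read, drawn at 0.003. The 15 copies with at least 90% identity all had a mean of at least 3.16 CPM, and Gm13341 is the lowest of them.

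The differences between genotypes were then tested in the other copies, which the choice of the 4 had not used. They were tested with edgeR's quasi-likelihood test in one fit of 19052 genes and 12 libraries, with Benjamini-Hochberg adjustment, and calls needed both an adjusted p of 0.05 or less and a change of 1.5-fold or more. These copies come from the same libraries, and in part from neighbouring mitochondrial genes, so they are not independent of the described ones. The limits that define them were also set after the counts were seen. Of the 22, 13 had enough counts. In Clrn1-/-, 10 of the 13 were called lower and 0 higher, where 3.70% of all genes tested were called lower and 3.52% higher. The median log2 fold change of the 13 was -0.70, beside -0.003 over all genes. With no fold minimum 11 of the 13 were lower and 0 higher. An unadjusted p under 0.05 was reached by 0 higher copies, and limma-voom and DESeq2 also called 10 lower and 0 higher.

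Those that fell in Clrn1-/- included copies of complex I genes, which carry the proton-pumping membrane arm. Gm28439, the mt-Nd4 copy, fell from 2954 ± 100 to 1870 ± 182 CPM (log2 -0.66 ± 0.127 SE, edgeR adjusted p = 0.00122). Gm13339, the mt-Nd2 copy, fell from 1203 ± 41.4 to 686 ± 57.3 CPM (-0.81 ± 0.103, adjusted p = 3.3e-05). Gm4076, an mt-Nd5 copy on chromosome 13, fell from 1213 ± 89.0 to 716 ± 85.7 CPM (-0.76 ± 0.139, adjusted p = 8.2e-04). Gm28438 (mt-Nd3), Gm10222 (mt-Nd4l) and Gm11407 (mt-Nd5) fell by 0.69, 0.70 and 0.63 on the log2 scale. The call of Gm11407 was lost without Clrn1-/- replicate 1 (-0.54) and with unstranded counts (-0.56).

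Of the 3 other copies of complex IV genes tested, 2 fell as well. Gm29216, the partial mt-Co1 copy next to Gm28661, fell from 4763 ± 230 to 2920 ± 333 CPM (-0.71 ± 0.112, adjusted p = 2.5e-04). The sparse mt-Co2 copy Gm13341 went from 4.65 ± 1.08 to 1.85 ± 0.556 CPM (-1.34 ± 0.233, adjusted p = 5.3e-04). Gm20594, which is annotated as protein coding and matches the large ribosomal RNA mt-Rnr2 at 88.5% identity, fell from 112 ± 6.45 to 68.5 ± 6.54 CPM (-0.70 ± 0.105, adjusted p = 1.5e-04). Gm48258, the mt-Nd1 copy, was the tenth and had a mean under 1 CPM.

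The remaining 3 copies were not called in Clrn1-/-. Gm11410, the mt-Cytb copy (cytochrome b of complex III), had 3840 ± 133 CPM in wild-type and 2704 ± 329 in Clrn1-/- (log2 -0.51, adjusted p = 0.00676), which is short of 1.5-fold, and it was called without Clrn1-/- replicate 3 (-0.59, adjusted p = 0.00685). Gm11512, an mt-Co1 copy of 90.7% identity, had 92.4 ± 14.4 and 108 ± 19.0 CPM (0.23, adjusted p = 0.275). Gm11408, the copy of mt-Nd6, had 22.6 ± 2.69 and 27.3 ± 0.528 CPM (0.27, adjusted p = 0.154).

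Gm11408 differs from the rest in that mt-Nd6 is the one protein-coding gene of the light strand of mitochondrial DNA, so its transcript runs against those of the others. The reads on its opposite strand, the direction of the heavy-strand transcript, were far more numerous, 1023 ± 101 CPM in wild-type against 573 ± 56.7 in Clrn1-/-, 807 ± 188 in Clrn2-/- and 692 ± 17.9 in the double mutant. When counts of both strands were pooled, the log2 fold change of Gm11408 in Clrn1-/- was -0.92 (adjusted p = 1.9e-05), a reversed direction. On its own strand it was higher in Clrn2-/-, 32.5 ± 7.12 CPM (0.52, adjusted p = 0.0162), a difference under the fold minimum.

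In Clrn2-/-, 1 of the 13 other copies was called lower and 0 higher, beside 1.42 and 1.24% of all genes tested, with the same counts from limma-voom and DESeq2 and 2 copies higher and 5 lower at an unadjusted p under 0.05. It was Gm13341, at 2.40 ± 0.694 CPM (log2 -0.96 ± 0.226, adjusted p = 0.00958). With no fold minimum, Gm11408 and Gm11512 (136 ± 32.3 CPM, log2 0.56, adjusted p = 0.0190) were higher. The remaining 10 had log2 fold changes between -0.90 and -0.14 that did not pass the test. Both were called higher without Clrn2-/- replicate 1 (0.69 and 0.73) or without wild-type replicate 3 (0.61 and 0.70).

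In Clrn1-/-Clrn2-/-, 0 of the 13 were called in either direction by edgeR, limma-voom or DESeq2, beside 4.02% of all genes called lower and 5.88% higher. At an unadjusted p under 0.05, 6 were lower and 0 higher. Their median log2 fold change was -0.31, and 4 were lower with no fold minimum. They were Gm29216 (3527 ± 171 CPM, log2 -0.43, adjusted p = 0.00616), Gm13339 (932 ± 44.6 CPM, -0.37, adjusted p = 0.00958), Gm4076 (864 ± 14.1 CPM, -0.49, adjusted p = 0.0111) and Gm11407 (341 ± 18.5 CPM, -0.56, adjusted p = 0.00636). Gm11407 passed the fold minimum without replicate 1 of either group (-0.61 and -0.65). Gm20594 had 115 ± 11.2 CPM (0.05, adjusted p = 0.757).

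**Figure D3:**
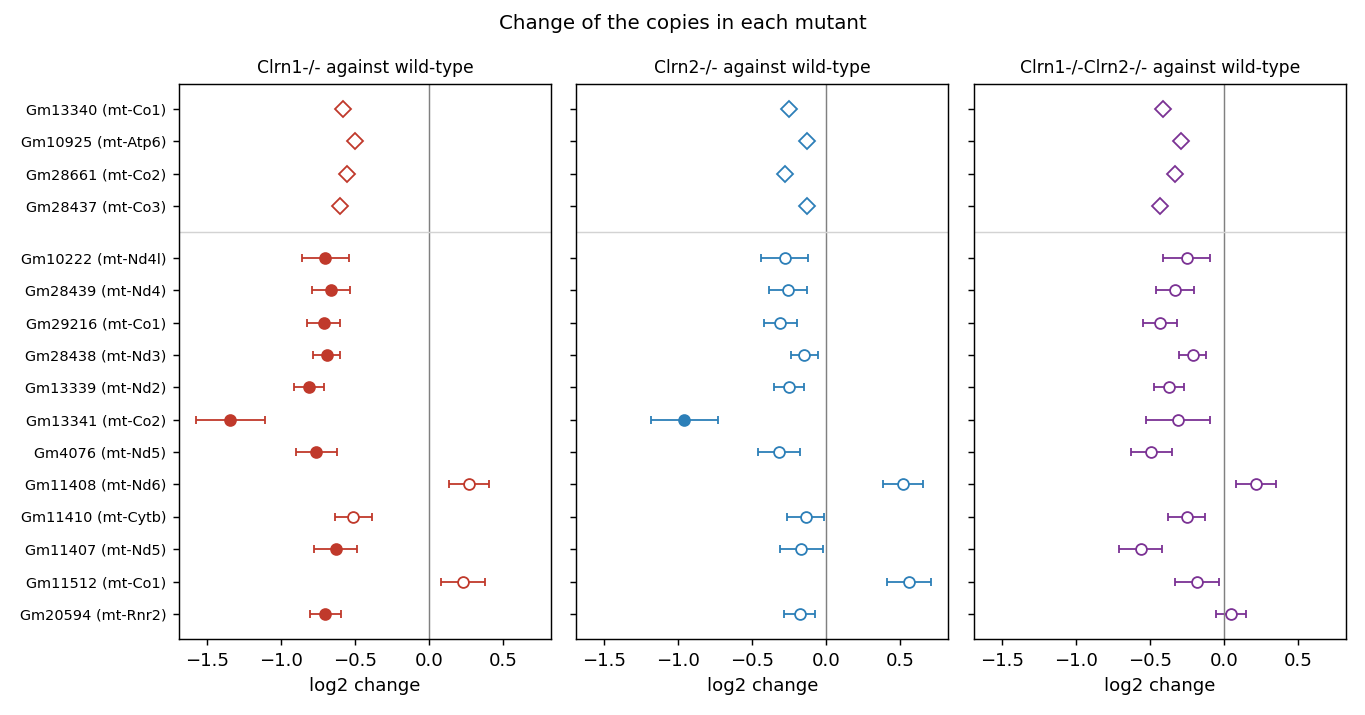
Log2 change against wild-type (x axis) of the copies (y axis, with the mitochondrial gene in brackets) in each mutant. Diamonds are the 4 described copies, drawn as ratios of means without a test, and circles are other copies with a mean of at least 1 CPM, as edgeR fold changes with bars of 1 SE, filled where called. In Clrn1-/- all points but Gm11408 and Gm11512 lie left of 0, and 9 of these circles are filled.

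Whether the changes of the 2 single mutants add up to that of the double mutant was tested in the other copies as an interaction, the log2 fold change of the double mutant minus the sum of both single ones. Of the 13, 8 were called higher, which means less reduced in the double mutant than the single mutants add to, and 1 was called lower. All genes tested were called at 3.58% higher and 1.92% lower. With DESeq2, 4 of these copies were called higher. Gm20594 had an interaction of 0.93 ± 0.148 (adjusted p = 4.8e-04), Gm13339 of 0.69 ± 0.144 (adjusted p = 0.00395) and Gm28438 of 0.63 ± 0.130 (adjusted p = 0.00361). Gm11512 had -0.97 ± 0.211 (adjusted p = 0.00494). The count called higher was 2 without Clrn2-/- replicate 1, when Gm13339 (0.54) and Gm28438 (0.49) were under 1.5-fold, 3 without Clrn1-/- replicate 2 and 4 to 9 without any other library.

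The proteins made from mitochondrial messengers assemble with subunits encoded in the nucleus, and 8 lists of nuclear genes around mitochondrial gene expression and respiration were examined (165 genes, of which 161 were in the tables and 159 tested). At 1.5-fold few of them differed. In Clrn1-/- 0 were called higher and 2 lower, in Clrn2-/- 0 and 1, and in Clrn1-/-Clrn2-/- 1 and 2. The other tools gave the same counts. At an unadjusted p under 0.05 by edgeR 10 genes were higher and 97 lower in Clrn1-/-, 9 and 40 in Clrn2-/-, and 9 and 93 in Clrn1-/-Clrn2-/-. The share of all genes at that unadjusted threshold is not given here. Against the 159 tested, the counts called at 1.5-fold are below the shares of all genes called that are given above. Cox8b, the muscle and heart isoform of a small complex IV subunit, fell in all 3 mutants, from 20.0 ± 1.49 CPM in wild-type to 6.10 ± 1.13 in Clrn1-/- (log2 -1.72 ± 0.145, adjusted p = 5.5e-07), 6.70 ± 1.23 in Clrn2-/- (-1.58 ± 0.144, adjusted p = 5.1e-06) and 4.49 ± 0.840 in the double mutant (-2.16 ± 0.151, adjusted p = 2.8e-08).

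Ndufs5, an accessory subunit of complex I, fell in Clrn1-/- from 46.4 ± 2.18 to 25.2 ± 5.40 CPM (-0.89 ± 0.100, adjusted p = 1.1e-05), and had 45.8 ± 2.25 CPM in Clrn2-/- and 39.8 ± 0.565 in the double mutant. In Clrn1-/-Clrn2-/- Cox7a1, the muscle isoform of another complex IV subunit, rose from 3.47 ± 0.417 to 5.25 ± 0.742 CPM (0.59 ± 0.142, adjusted p = 0.00365), a call lost without Clrn1-/-Clrn2-/- replicate 1 or wild-type replicate 3 (0.47 and 0.49). Esrrb, a nuclear receptor of the oestrogen-related family, fell there from 21.9 ± 5.16 to 11.3 ± 1.55 CPM (-0.95 ± 0.187, adjusted p = 7.9e-04). The summed CPM of 12 skeletal muscle markers was 60.9 to 66.6 in wild-type against 68.1 to 78.1 in Clrn1-/-, 43.7 to 51.0 in Clrn2-/- and 29.1 to 31.0 in the double mutant, with 9, 6 and 8 of the 12 below their wild-type mean in the 3 mutants. Neb (34.3 CPM in wild-type) and Ttn (17.3 CPM) made up most of the sum, and the part of these markers in the values of Cox8b and Cox7a1 was not tested.

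With no fold minimum, many nuclear subunits were lower by small amounts. In Clrn1-/- this held for 29 of 36 subunits of complex I, 6 of 9 of complex III, 11 of 15 of complex IV and 13 of 15 of ATP synthase, none of which were higher, beside 13.3% of all genes lower and 13.6% higher by the same rule. Their median log2 fold changes were -0.25, -0.27, -0.40 and -0.23. In Clrn1-/-Clrn2-/- the counts were 25, 6, 9 and 10, beside 17.9% lower and 19.1% higher over all genes, with medians of -0.20, -0.17, -0.26 and -0.21. In Clrn2-/- they were 10, 0, 6 and 2, beside 7.07% lower and 7.14% higher.

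Of the lists on mitochondrial RNA itself, in Clrn1-/- 1 of the 24 genes of mitochondrial DNA transcription and replication was lower and 1 higher, and of 29 genes of RNA processing, polyadenylation and decay 8 were lower and 1 higher, all within 1.5-fold. In Clrn1-/-Clrn2-/- the counts were 6 lower and 2 higher in the former list and 13 and 1 in the latter, and in Clrn2-/- 0 and 2, and 2 and 1. Of the regulators of biogenesis, 2, 3 and 6 of 15 were lower and 1, 0 and 5 higher in Clrn1-/-, Clrn2-/- and Clrn1-/-Clrn2-/-. Of 16 markers of mitochondrial mass, 5, 0 and 6 were lower and 0, 1 and 0 higher.

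Some genes of these lists are named for their role, outside the rule by which genes were picked. Tfam, which packages mitochondrial DNA and starts its transcription, had 36.1 ± 1.89 CPM in wild-type against 33.3 ± 0.921 in Clrn1-/-, 37.2 ± 0.559 in Clrn2-/- and 34.0 ± 0.332 in the double mutant, with adjusted p of 0.0881, 0.612 and 0.175 by edgeR. Polrmt, the mitochondrial RNA polymerase, had 36.4 ± 1.99, 37.8 ± 1.61, 34.5 ± 2.56 and 33.4 ± 1.11 CPM and did not pass the test in any mutant either. Lrpprc and Slirp form the complex that stabilises mitochondrial messengers. Slirp was lower in Clrn1-/- (22.0 ± 1.71 to 16.6 ± 0.643 CPM, log2 -0.41, adjusted p = 2.5e-04), and Lrpprc in Clrn1-/-Clrn2-/- (87.3 ± 2.33 to 69.0 ± 3.00 CPM, -0.34, adjusted p = 5.3e-05). Both changes were short of 1.5-fold. Lrpprc did not pass the edgeR test in Clrn1-/- (79.6 ± 1.70 CPM, adjusted p = 0.0552). In Clrn2-/- neither passed it, with adjusted p of 0.444 for Slirp and 0.150 for Lrpprc.

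The 4 copies were set beside their nuclear-encoded partners library by library. The 75 tested subunits of complexes I, III, IV and ATP synthase summed to 11464 ± 540 CPM in wild-type against 9729 ± 357 in Clrn1-/- (84.9%), 10813 ± 393 in Clrn2-/- (94.3%) and 9777 ± 145 in the double mutant (85.3%). The sum of the 4 copies was 2.66 ± 0.102 times that of the subunits in wild-type against 2.13 ± 0.178 times in Clrn1-/-, 2.47 ± 0.541 times in Clrn2-/- and 2.42 ± 0.0846 times in Clrn1-/-Clrn2-/-. This ratio lay below all wild-type libraries in the 3 Clrn1-/- and the 3 Clrn1-/-Clrn2-/- libraries and in 1 of the 3 Clrn2-/- libraries. Clrn2-/- replicate 1 had the lowest ratio of the series, 1.87, with 11225 CPM of nuclear subunits, the second highest sum.

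**Figure D4:**
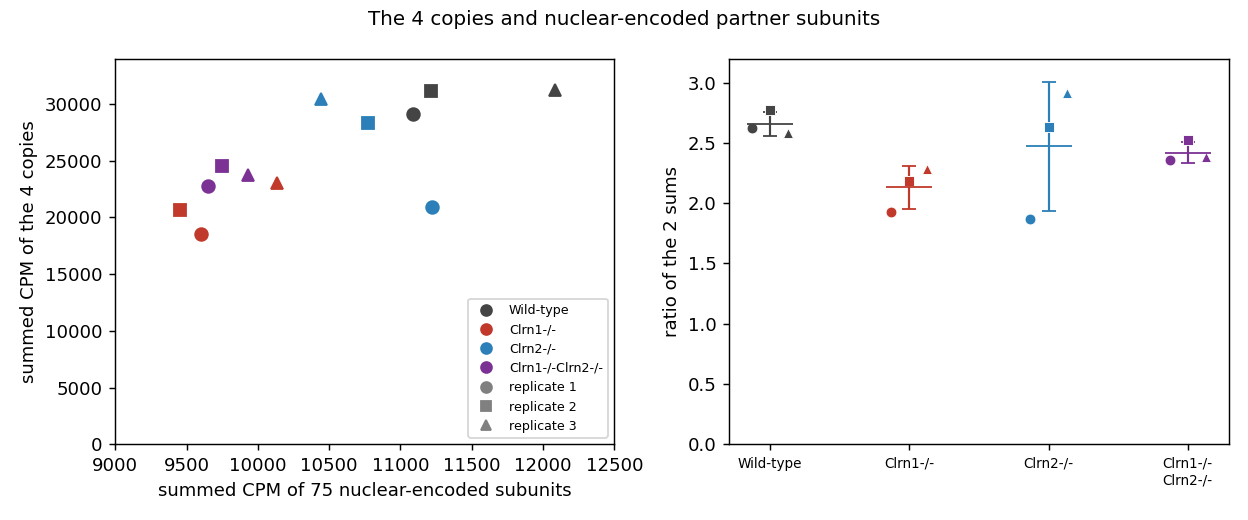
Left, summed CPM of the 4 copies (y axis, starting at 0) against summed CPM of 75 nuclear-encoded respiratory subunits (x axis, not starting at 0) for the 12 libraries. Right, the ratio of both sums by genotype with mean and SD (n = 3 each), which was 2.66 in wild-type and 2.13 in Clrn1-/-. Clrn2-/- replicate 1 (blue circle) stands apart, with a wild-type level of nuclear subunits and a ratio of 1.87.

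Reads on the opposite strand of the copies, which the levels above do not include, were compared as a share and as CPM. They made up 0.0829, 0.0984 and 0.124% of the reads on the 4 copies in wild-type. In Clrn1-/- they made up 0.288, 0.264 and 0.207%, in Clrn2-/- 0.251, 0.167 and 0.257% and in Clrn1-/-Clrn2-/- 0.211, 0.146 and 0.252%. Every mutant library stood above all wild-type libraries, and the mean shares were 2.48, 2.21 and 1.99 times that of wild-type. How often single genes separate in this way was not counted. The level of the sense strand, which makes up most of the denominator, was lower in the mutants on average. As CPM, the opposite strand of the 4 copies together had 24.1 to 38.8 in the wild-type libraries, 47.9 to 54.5 in Clrn1-/- and 47.4 to 78.3 in Clrn2-/-, and the lowest double-mutant library (35.8) lay below the highest wild-type one. The share over all genes was 4.45 to 4.57% in wild-type and 4.51 to 4.77% in the mutants.

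By copy, the opposite-strand share of Gm13340 was 0.0881 ± 0.0279% in wild-type and 0.346 ± 0.0525, 0.321 ± 0.0679 and 0.236 ± 0.0780% in Clrn1-/-, Clrn2-/- and Clrn1-/-Clrn2-/-. Gm28661 went from 0.0965 ± 0.0131% to 0.280 ± 0.0528, 0.282 ± 0.0759 and 0.211 ± 0.0618%, and Gm28437 from 0.0860 ± 0.0101% to 0.164 ± 0.0325, 0.120 ± 0.00704 and 0.155 ± 0.0208%. For these 3 copies the mutant libraries did not overlap wild-type, and how many of all genes do so by this share was not counted. Gm10925 did overlap, with 0.134 ± 0.0421% in wild-type and 0.187 ± 0.0334, 0.160 ± 0.0572 and 0.191 ± 0.0435% in the mutants, and its opposite-strand level was 6.91 to 14.3 CPM in wild-type and 9.79 to 11.6 CPM in Clrn1-/- and 7.59 to 16.5 CPM in Clrn2-/-, and the lowest double-mutant library had 10.2 CPM, so that each mutant overlapped wild-type. These shares rest on 169 to 1260 reads per copy and library.

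**Figure D5:**
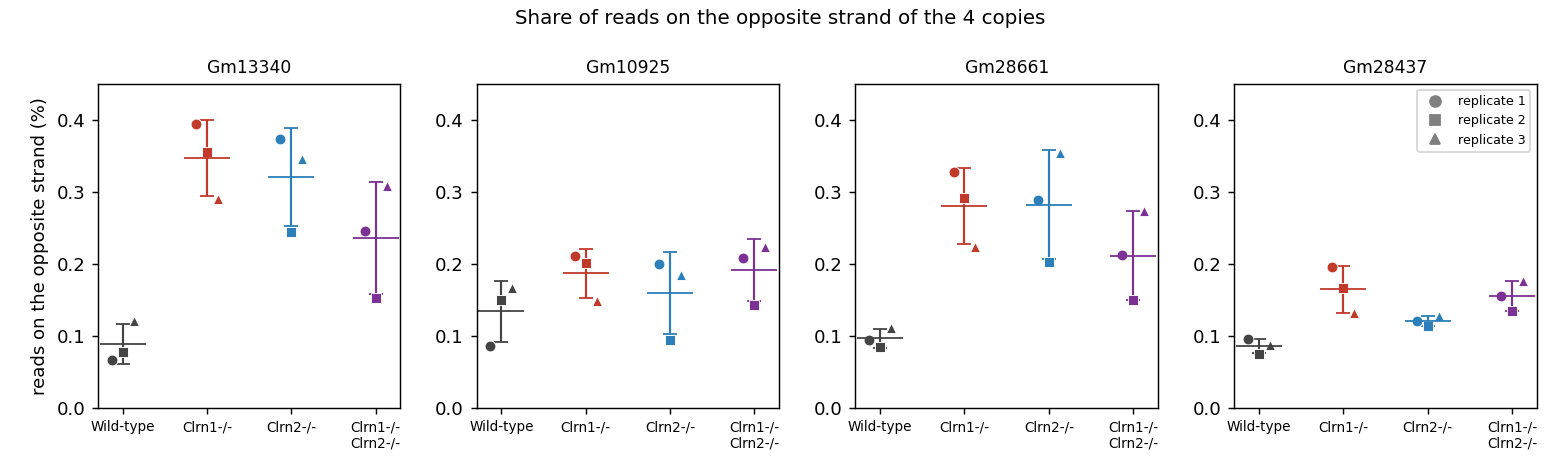
Percent of the reads on each copy that lie on its opposite strand (y axis, starting at 0) in the 3 libraries of each genotype (x axis). Symbols are replicates, horizontal bars are means and vertical bars SD. The mutant libraries of Gm13340, Gm28661 and Gm28437 all lie above the wild-type ones, and those of Gm10925 overlap them.

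Among genes that are not copies, the log2 CPM of 4930503L19Rik, Rgl2, Ergic2, Fam221a and Manea followed that of the summed copies most closely over the 12 libraries (Pearson's r = 0.960, 0.944, 0.919, 0.916 and 0.911, out of 15390 genes whose mean reached 1 CPM). Rgl2, a guanine nucleotide exchange factor for Ral proteins, had 76.9 CPM on average in wild-type against 63.8 in Clrn1-/-, 69.8 in Clrn2-/- and 65.2 in the double mutant, with 64.7 in Clrn2-/- replicate 1. Manea, a Golgi endomannosidase, had 55.8, 49.7, 52.8 and 50.1 CPM, with 46.9 in that library. Of all candidates, 6 had r of at least 0.9 and 18 had r of at most -0.9. These values are a description over libraries that share their genotype groups.

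In bulk tissue, fewer cells of a type and less RNA per cell cannot be told apart, so the cell type markers are given beside these levels. Summed CPM of the 12 neuron markers was 14211 to 15657 in wild-type against 12610 to 13139 in Clrn1-/-, 12256 to 14301 in Clrn2-/- and 9562 to 9836 in the double mutant, with 9, 8 and 10 of the 12 below their wild-type mean. The 12 supporting cell markers summed to 2874 to 3131 CPM in wild-type against 3276 to 3593 in Clrn1-/-, 3291 to 4007 in Clrn2-/- and 5803 to 6317 in the double mutant. In the 3 mutants, 3, 3 and 1 of the 12 were below their wild-type mean. Ceacam16 (1348 CPM in wild-type) was the largest part of this sum. The paper reports higher Ceacam16 and Otog in the double mutant by RNA sequencing and by qRT-PCR. The 7 red blood cell genes were each lower on average in every mutant, with sums of 710 to 1160, 286 to 389, 438 to 657 and 547 to 738 CPM. The 15 hair cell markers summed to 539 to 619, 533 to 600, 592 to 739 and 680 to 714 CPM. The 10 macrophage markers summed to 147 to 186, 226 to 239, 169 to 214 and 233 to 273 CPM in the same order, the 8 Schwann cell myelin markers to 21034 to 22229, 20546 to 21416, 20897 to 22137 and 20028 to 21407 CPM, and the 11 stria vascularis markers to 979 to 1269, 1028 to 1153, 1022 to 1126 and 1154 to 1209 CPM. The part of these cell types in the levels of the copies was not tested.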

How the data were processed

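The deposited values are whole-number counts of reads per gene, which the authors made by aligning paired 100-base reads of poly(A)-selected, strand-specific libraries with STAR to GRCm38.p6 and counting them by gene (Gencode) without normalization. The study's methods limit the annotation to coding, antisense and lincRNA genes, whereas the deposited tables also hold pseudogenes such as the 4 copies. The column of the reverse strand was used, except where the opposite strand or both strands are named. The submitters' processing notes also name DESeq2. Versions are not given in the sources used here.

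Counts were filtered with filterByExpr (minimum count 10), which left 19052 genes including the 4 copies, scaled by TMM and fitted with edgeR 4.0.16 in R 4.3.3 over 12 libraries (3 per genotype). DESeq2 1.42.0 and limma 3.58.1 (voom) served as alternatives, and the functions were tested on simulated data. CPM are counts per 1000000 of the scaled library. Total counts per library, 30008679 to 41049302, limit precision for rare copies. Reads assigned to no gene (6.83 to 8.36% without a feature, 2.38 to 2.66% mapping to several places) stayed out of library sizes.

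The members and gene lists were chosen with earlier results of these data known. Genes named are the 4 copies, other copies with a mean of at least 1 CPM, up to 3 called genes per list, direction and comparison, the 5 genes most alike, and Clrn1 and Clrn2. Exceptions are marked. Copies were found with BLAST 2.17.0 on Gencode M21 transcripts, at limits set after the counts were seen, and coordinates are from that annotation, whereas the authors counted with a later release (M24). Of those found, 2 were not analysed here. Replicate numbers of Clrn1-/- and wild-type deviated together (correlations of 0.291, 0.134 and 0.111 over 12453 genes), a hint of pairing from the data and not from the design. The tests reported above used genotype only. A fit with the replicate number as a block was run as an alternative.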

Additional observations from a re-analysis of the deposited data

Results flagged for a closer look

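The effect of the 2 mutations together differed from the sum of the single effects by the edgeR interaction test (log2, adjusted p at most 0.05 and at least 1.5-fold). Among other nuclear copies this applied to Gm28439 (0.59), Gm10222 (0.72), Gm28438 (0.63), Gm13341 (1.99), Gm13339 (0.69), Gm20594 (0.93), Gm48258 (2.08, mean under 1 CPM), Gm4076 (0.60) and Gm11512 (-0.97). Among the pathway lists it applied to Cox4i2, an isoform of a complex IV subunit (0.84), Ndufs5 (0.69), Cox7a1 (0.71) and Cox8b (1.15). Clrn2 itself had an interaction of 1.38. Several of these calls did not hold under the 19 alternatives tried. With DESeq2 the adjusted p was 0.0657 for Gm10222, 0.0517 for Gm28439, 0.0926 for Gm4076 and 0.0659 for Cox4i2, which was also lost with limma-voom (0.0542). Over all alternatives, libraries left out included, the call was lost in 14 for Cox4i2, 13 for Gm4076, 12 for Gm28439, 10 for Gm10222, 7 for Cox7a1, 3 for Gm28438 and 1 each for Gm13339 and Ndufs5. Gm48258, with a mean under 1 CPM, was not followed in this tally. It was not among the 4 copies called higher with DESeq2 or the 2 without Clrn2-/- replicate 1.

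Reads on the opposite strand of the 4 copies were not part of the levels compared. Their mean share was 0.253% in Clrn1-/-, 0.225% in Clrn2-/- and 0.203% in the double mutant, above the wild-type libraries (0.0829 to 0.124%) in each mutant library. How many of all genes separate in this way was not counted.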

How the results depend on the processing

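The summed level of the 4 copies kept its direction in every mutant with library size alone, DESeq2 size factors, unstranded counts, unassigned reads included in the library size, and each library left out. Leaving out libraries moved its log2 ratio from -0.64 to -0.48 in Clrn1-/-, -0.31 to -0.05 in Clrn2-/- and -0.40 to -0.34 in Clrn1-/-Clrn2-/-. Over 120 values of the single copies, Gm10925 in Clrn2-/- alone changed sign, to 0.02 without Clrn2-/- replicate 1.

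Without the fold minimum, genes of the pathway lists called higher and lower numbered 3 and 75 in Clrn1-/-, 4 and 23 in Clrn2-/-, 9 and 81 in Clrn1-/-Clrn2-/- and 36 and 8 in the interaction, and other copies numbered 2 higher in Clrn2-/-, 4 lower in Clrn1-/-Clrn2-/- and 2 lower in the interaction. With library size alone, 1 other copy was called higher in Clrn2-/-, and 5 higher and 2 lower in the interaction. DESeq2 called 4 other copies higher in the interaction, and with no filter on low counts 0 list genes were called higher in Clrn1-/-Clrn2-/-. Leaving out 1 library gave 2 to 4 list genes lower in Clrn1-/- (4 without wild-type replicate 1), 0 to 2 other copies higher in Clrn2-/- (2 without Clrn2-/- replicate 1 or wild-type replicate 3), and, in Clrn1-/-Clrn2-/-, 0 to 1 list genes higher and 0 to 1 other copies lower (1 without replicate 1 of either group). In the interaction it gave 2 to 5 list genes higher (2 without Clrn1-/- replicate 2, Clrn1-/-Clrn2-/- replicate 1 or wild-type replicate 2), 0 to 1 lower, 2 to 9 other copies higher (2 without Clrn2-/- replicate 1, 3 without Clrn1-/- replicate 2) and 1 to 2 lower. For the interaction, alternatives other than limma-voom, the replicate block and no fold minimum were chosen after seeing the data. With both strands counted, Gm11408 reversed to -0.92 in Clrn1-/- and 0.83 in the interaction, since the opposite strand held most reads there. The cause of the other shifts was not tested.

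With the replicate number as a block, 10 other copies and 2 list genes were called lower in Clrn1-/-, as without it, and no other count of calls against wild-type changed either. In the interaction 9 other copies were called higher, with Gm29216 (0.60) added. Deviations of same-numbered libraries correlated at -0.196, 0.284 and -0.0892 for Clrn2-/- and 0.257, -0.279 and 0.306 for Clrn1-/-Clrn2-/-, so these share only a number. Depth limits Gm13341 and Gm48258, whose levels are near or under 1 CPM in some genotypes.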
